A study of Mus musculus with 4 samples.

Results

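The common gamma chain cytokine receptors were examined as 7 genes of the 55536 mouse genes in the deposited tables, chosen by symbol from the family's known chains: Il2rg, the shared chain itself, and Il7r, Il4ra, Il2rb, Il21r, Il9r and Il15ra, the chains that work with it. All 7 were found, and all 7 passed the filter on low counts. The cells were T cells from the spleen of adult male B6CASTF1/J mice, F1 animals of a C57BL/6 female and a CAST/EiJ male, taken at 66 days of age and described by the T cell antigen CD3. The 4 biological replicates form 1 group and are numbered libraries 1 to 4, each made from 300 ng of total RNA with spike-in RNAs, with no treatment and no second condition named. The labels give the 4 samples 1 shared donor identifier and do not say whether each came from its own animal, so every SD and p-value below measures the spread between these samples, which may be technical.

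Cytokines of this family signal by bringing 2 or 3 receptor chains together on the cell surface. The shared chain, Il2rg, is part of the receptors for IL-2, IL-4, IL-7, IL-9, IL-15 and IL-21, and inherited loss of it causes severe combined immunodeficiency. The partner chain gives the receptor its ligand: Il7r binds IL-7, Il4ra binds IL-4, Il21r binds IL-21 and Il9r binds IL-9, while Il2rb serves both IL-2 and IL-15. Il15ra holds IL-15 and often presents it to a neighbouring cell. The kinase Jak1 sits on the partner chains and Jak3 on the shared chain, and together they activate STAT factors. In resting T cells, IL-7 and IL-15 are known for keeping naive and memory cells alive.

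Several of these genes make transcripts that leave out the membrane anchor or stop before it, and the results on transcripts below turn on the following stretches. All are mm10 positions with the sequence of the GENCODE M21 transcript, written 5′ to 3′ in the direction of transcription. In the first 4 lines the capitals are bases of the exon that differs between transcripts and the lower case letters are the adjoining exon bases of the same transcript. Exon 6 of Il2rg lies at chrX:101265630-101265726 on the minus strand and is in the coding transcript Il2rg-201 but not in Il2rg-203. It is known to encode the membrane-spanning segment, and skipping it is known to give a soluble shared chain.
Il2rg exon 6: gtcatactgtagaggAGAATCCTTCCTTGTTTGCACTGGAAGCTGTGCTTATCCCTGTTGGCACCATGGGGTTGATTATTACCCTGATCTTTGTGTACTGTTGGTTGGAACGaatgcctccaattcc
The alternative exon of Il4ra lies at chr7:125571934-125572047 on the plus strand and is exon 8 of Il4ra-205. It is 114 bases long, and the reading frame ends at its base 20, so the line below stops at that stop codon. A transcript of this kind is the known source of soluble IL-4 receptor in the mouse, although the annotation classes it as a target of nonsense-mediated decay.
Il4ra alternative exon, to its stop codon: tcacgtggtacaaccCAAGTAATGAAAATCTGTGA
Exon 7 of Il21r, at chr7:125629738-125629834 on the plus strand, is 97 bases long and is absent from Il21r-202 and Il21r-203. Exon 3, at chr7:125625265-125625367, is 103 bases long and is absent from Il21r-203. Neither length divides by 3, so leaving out either exon alone shifts the reading frame.
Il21r exon 7: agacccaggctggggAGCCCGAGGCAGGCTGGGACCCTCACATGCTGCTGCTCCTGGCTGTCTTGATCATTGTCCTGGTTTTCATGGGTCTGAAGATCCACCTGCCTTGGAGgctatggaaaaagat
Il21r exon 3: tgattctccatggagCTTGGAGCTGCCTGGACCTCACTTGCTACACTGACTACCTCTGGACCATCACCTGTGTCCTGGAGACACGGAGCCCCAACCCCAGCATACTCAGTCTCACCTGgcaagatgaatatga
In Il7r the difference is not an exon but a transcript, Il7r-202, that runs 987 bases past the end of exon 4 into the intron. The stretch at chr15:9512855-9512914 on the minus strand shows the boundary, with the last 30 bases of exon 4 in lower case and the first 30 bases of the intron in capitals.
Il7r exon 4 and start of intron 4: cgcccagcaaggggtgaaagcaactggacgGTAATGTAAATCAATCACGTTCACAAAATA

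Total estimated counts ran from 14584388 to 17335895 per library. The cells matched their label: all 14 pan-T markers had a mean of at least 10 TPM (TPM is a level per transcript length, scaled to a fixed total), and their summed level was 3534 to 3680 TPM. Library 4 stood apart in RNA of other cells. The 12 B cell markers summed to 17.1, 21.4, 15.2 and 174.3 TPM in libraries 1 to 4, led by Igkc, Ighd and Cd22, and all 12 were highest in library 4. The 7 erythroid markers, led by Hba-a1, Hbb-bs and Hba-a2, summed to 35.4, 62.6, 15.8 and 633.8 TPM. The 8 neutrophil markers, led by S100a9, S100a8 and Mmp9, summed to 30.2 TPM in library 2 and to between 9.62 and 10.8 TPM in the others. S100a9 at 13.3 and S100a8 at 11.4 TPM made up most of the library 2 sum. Mmp9 was highest in library 1, at 2.92 TPM, and 3 of the 8 markers were highest in library 4. Sums were 45.4 to 51.7 TPM for 7 natural killer markers led by Gzma, Tyrobp and Fcer1g, and 28.6 to 33.7 TPM for 9 monocyte and macrophage markers led by Lyz2, Cd68 and Csf1r. They were 2.08 to 5.37 TPM for 6 dendritic markers led by Siglech, Itgax and Clec9a, and 1.65 to 3.01 TPM for 5 mast cell and basophil markers led by Kit, Cpa3 and Mcpt8. No marker on these lists had 0 counts in all 4 libraries.

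The shared chain was the most abundant member. Il2rg (ENSMUSG00000031304.18, chrX:101264378-101268255, minus strand) was at 229.6, 219.9, 215.9 and 200.9 TPM in libraries 1 to 4, a mean of 216.6 ± 12.0 (SD, n = 4). These values rest on 4164 to 5472 counts per library. Library 1 was the highest and library 4 the lowest, and only 0.876% of the 22028 protein-coding genes had a higher mean.

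Among the partner chains, Il7r and Il4ra were the highest. Il7r (ENSMUSG00000003882.5, chr15:9505788-9530176, minus strand), the chain that naive and memory T cells use to receive IL-7, was at 106.9, 102.2, 93.8 and 98.7 TPM, a mean of 100.4 ± 5.54 (SD, n = 4). Il4ra (ENSMUSG00000030748.9, chr7:125552120-125579474, plus strand), the chain that binds IL-4 and also takes part in the IL-13 receptor, was at 96.3, 99.6, 97.0 and 80.1 TPM, a mean of 93.2 ± 8.86 (SD, n = 4). Libraries 1 to 3 of Il4ra lay close together, and library 4 lay below them. The values of both genes overlapped.

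Il21r and Il2rb formed the next step down. Il21r (ENSMUSG00000030745.9, chr7:125603429-125633570, plus strand), which starts 23954 bases beyond the end of Il4ra on the same strand, was at 54.5, 59.2, 56.4 and 59.3 TPM, a mean of 57.3 ± 2.34 (SD, n = 4). Il2rb (ENSMUSG00000068227.9, chr15:78479256-78495271, minus strand), the signalling chain for IL-2 and IL-15, was at 51.6, 56.9, 54.6 and 58.0 TPM, a mean of 55.3 ± 2.86 (SD, n = 4). All 8 values of these 2 genes were below all 8 values of Il7r and Il4ra.

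Il15ra and Il9r were far lower. Il15ra (ENSMUSG00000023206.16, chr2:11705290-11734317, plus strand) was at 4.07, 5.16, 5.98 and 5.21 TPM, a mean of 5.11 ± 0.785 (SD, n = 4), from 99 to 112 counts per library. Its CPM, counts scaled to library size only, were closer together, at 6.28, 6.48, 6.41 and 7.63, and library 1 was lowest in both units. The TPM also divides by an effective length that the authors' quantification set between 1054 and 1484 bases, depending on the mix of transcripts it assigned in each library. Il9r (ENSMUSG00000020279.10, chr11:32187541-32200279, minus strand), the IL-9 binding chain, was at 0.35, 0.57, 0.23 and 1.25 TPM. Those levels came from 25, 25, 17 and 51 counts. The exact 95% Poisson interval of the 51 counts, 38.0 to 67.1, lay above the highest bound of the other 3 libraries, 36.9, and these intervals cover counting error only. In CPM, where the assigned transcript length plays no part, Il9r spanned 3.38-fold between libraries, against 5.43-fold in TPM. All values were above a floor of 3 counts, which is 0.174 to 0.206 CPM here.

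Set against the whole transcriptome, 5 of the 7 members had a mean of at least 10 TPM, as did 26.8% of all 22028 protein-coding genes. The median member was at 57.3 TPM and the median protein-coding gene at 0.47 TPM. Il7r stood at rank 462, Il4ra at 514, Il21r at 984 and Il2rb at 1039 among protein-coding genes, while Il15ra was at 7757 and Il9r at 10718. In a mixed cell preparation, fewer cells that express a gene and less of its RNA per cell cannot be told apart. Annotated genes overlap 2 members: Gm20489 on the strand of Il2rg and Gm44876 antisense to Il4ra. Both were listed at 0 TPM in every library, and how shared reads were divided was not tested.

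**Figure D1:**
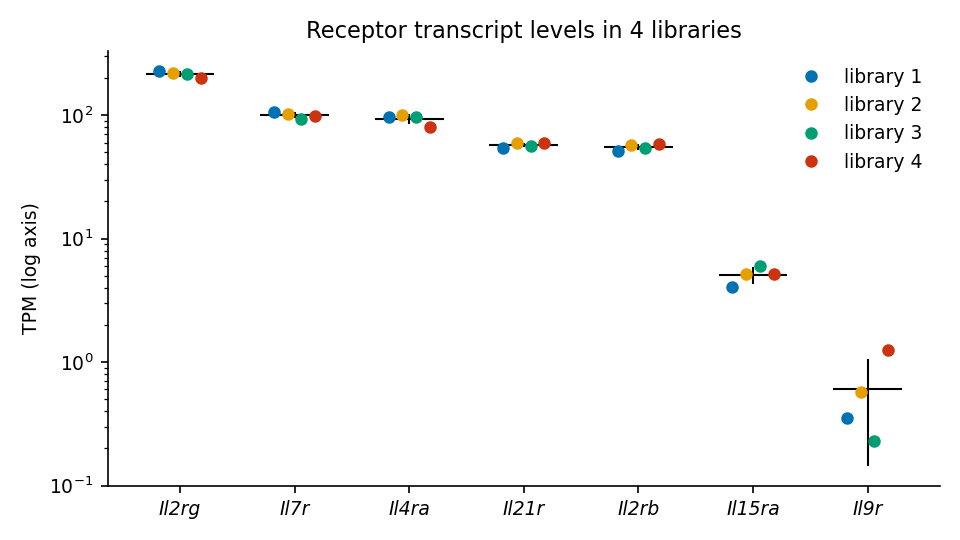
Deposited TPM (log axis) of the 7 receptor genes, with each of the 4 libraries as a point and the mean and SD as a bar. Il2rg was highest at a mean of 216.6 TPM, Il7r and Il4ra overlapped, Il21r and Il2rb overlapped, and Il9r was lowest, with library 4 above its other 3 libraries.

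The order of the members was compared within libraries, as the log2 ratio of their TPM with 0.1 added. Of the 21 pairs, 20 had the same order in 4 of 4 libraries. For each of these pairs an exact permutation test that flips the signs of the 4 ratios (two-sided) gave p = 0.13, which is 1 in 8 and the smallest p that 4 libraries allow, and an adjusted p of 0.131 over the 21 pairs, so no pair could pass 0.05. The exception was Il7r over Il4ra, with a mean log2 ratio of 0.11 ± 0.15 (SD, n = 4), Il7r being higher in 3 of 4 libraries (exact permutation p = 0.375). In the second quantification this ratio was -0.10 ± 0.19, Il4ra being higher in 3 of 4 libraries. Il21r exceeded Il2rb in all 4 libraries, but by a log2 ratio of only 0.05 ± 0.02. The order of that pair was the opposite in the second quantification, at -0.04 ± 0.03, and in the sum of protein-coding transcripts alone, at -0.24 ± 0.04, in 4 of 4 libraries each. In TPM over all transcripts the levels stood in 5 steps, Il2rg, then Il7r with Il4ra, then Il21r with Il2rb, then Il15ra, then Il9r.

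The shared chain was less abundant than its partners together. The summed level of Il7r, Il4ra, Il21r, Il2rb and Il9r was 309.5, 318.5, 302.0 and 297.5 TPM, a mean of 306.9 ± 9.21 (SD, n = 4). The log2 ratio of Il2rg to this sum was -0.43, -0.53, -0.48 and -0.57, a mean of -0.50 ± 0.06, so the partners exceeded the shared chain by 1.42-fold in RNA. It was below 0 in 4 of 4 libraries (exact sign-flip permutation p = 0.13, and 0.13 adjusted over 6 ratios), and it was -0.60 in the second quantification and -0.45 over protein-coding transcripts. Of the sum, Il7r held 32.7% ± 1.49, Il4ra 30.4% ± 2.32, Il21r 18.7% ± 0.961, Il2rb 18.0% ± 1.17 and Il9r 0.197% ± 0.155.

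Pairs of chains that meet in the same receptor were compared, and so were some pairs from different receptors. Il2rb, the signalling chain shared by IL-2 and IL-15, exceeded Il15ra by a log2 ratio of 3.42 ± 0.19, or 10.7-fold, and by 4.78 ± 0.60 over protein-coding transcripts alone. It exceeded Il2ra, the alpha chain that raises affinity for IL-2 and marks regulatory and activated T cells, by 2.66 ± 0.19, or 6.31-fold. Between chains of different receptors, Il7r exceeded Il2rb by 0.86 ± 0.13, with 1.05 in library 1 and 0.77 to 0.84 in the others. Il4ra exceeded its chromosomal neighbour Il21r by 0.82, 0.75, 0.78 and 0.43, and library 4 was the lowest. Each of these 4 differences held in 4 of 4 libraries with an exact permutation p of 0.13, which is the smallest possible. Il4ra also exceeded Il13ra1, its partner in the IL-13 receptor, in 4 of 4 libraries, but Il13ra1 had at most 8 counts in a library, so the size of that ratio rests on the added constant.

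The transcripts of Il2rg were mostly of the membrane form. Il2rg-201, with the full coding sequence of 1107 bases, held 73.0%, 74.7%, 75.5% and 76.4% of the gene's TPM, a mean of 74.9% ± 1.46 (SD, n = 4). A retained-intron transcript, Il2rg-204, held 15.0% ± 1.56. The libraries were made from total RNA, and whether intron reads came from unspliced RNA was not tested. This limit holds for every retained-intron transcript below. Between Il2rg-201 and Il2rg-203, the transcript without exon 6 took 5.62%, 4.70%, 3.52% and 4.96%, a mean of 4.70% ± 0.878. The second quantification put it at 16.3%, 12.0%, 10.5% and 11.1%, a mean of 12.5% ± 2.64. The minor form was present in 4 of 4 libraries by both methods, but its share differed between them by more than the spread between libraries. Il2rg-203 is annotated with 5 exons against 8 in Il2rg-201, so the share also rests on how reads of the common part were assigned.

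Il4ra had the most divided output of the abundant partners. Il4ra-201, with a coding sequence of 2430 bases, held 56.8% ± 1.76 of the gene, the retained-intron transcript Il4ra-204 held 22.4% ± 1.48, and the short Il4ra-203 held 8.56% ± 1.35. Il4ra-205, whose coding sequence of 690 bases ends in the alternative exon shown above, held 12.3% ± 2.86. Counted between Il4ra-205 and Il4ra-201 alone, the share with the alternative exon was 12.1%, 19.2%, 20.3% and 19.4%, a mean of 17.8% ± 3.79, and library 1 was the lowest. In the second quantification this share was 40.2%, 41.7%, 42.2% and 42.8%, a mean of 41.7% ± 1.12. The 2 methods thus did not overlap, and library 1 lay lowest in both. The alternative exon lies inside the intron that Il4ra-204 retains, and Il4ra-204 was left out of the share. How reads of that exon were divided between Il4ra-204 and Il4ra-205 was not tested. Il4ra-202 was listed at 0 in every library.

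Il21r likewise made transcripts that lack 1 or both exons shown above. Il21r-201, the coding transcript of 1587 coding bases, held 66.8%, 65.0%, 62.8% and 72.6% of the gene, a mean of 66.8% ± 4.17. Il21r-202, which lacks exon 7 and has 804 coding bases, held 15.5%, 18.4%, 18.2% and 7.21%, with library 4 the lowest. In the second quantification it held 14.3%, 12.9%, 8.0% and 8.5%, with library 3 the lowest. Il21r-203, which lacks exons 3 and 7 and is classed as a target of nonsense-mediated decay, held 18.4% ± 1.58. Its last exon begins where an exon of Il21r-201 does but runs on into the intron that follows. Whether the reads assigned to Il21r-203 came from unspliced RNA was not tested. That limit holds for the shares without exon 7 and without exon 3, which both count Il21r-203. The share of Il21r transcripts without exon 7 was 33.2% ± 4.17 in the first quantification and 36.6% ± 1.29 in the second, and that without exon 3 was 18.4% ± 1.58 and 25.7% ± 2.01.

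Il7r and Il2rb each divided between 2 main transcripts. Il7r-201 held 67.8% ± 2.33 of Il7r, and Il7r-202, which ends inside intron 4 and has no annotated coding sequence, held 28.9%, 29.1%, 26.8% and 30.0%. Whether the intron reads assigned to Il7r-202 came from unspliced RNA was not tested. Against the transcripts that continue past exon 4, the run-on transcript took 29.3% ± 1.52 in the first quantification and 27.2% ± 1.19 in the second, a difference larger than the SD between libraries. In Il2rb, Il2rb-201 and Il2rb-202 carry the same length of coding sequence, 1617 bases, and differ in their first exon and in the length of their last. Il2rb-202 held 24.7% ± 2.63 of Il2rb in the first quantification and 37.9% ± 2.70 in the second.

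For Il15ra and Il9r the counts were too few for a stable picture. Il15ra has 18 annotated transcripts, of which 6 were listed at 0 in every library of both quantifications. Its largest mean shares were 22.7% ± 15.3 for Il15ra-216 and 22.4% ± 7.20 for Il15ra-208, both retained-intron transcripts. Retained-intron transcripts together held 60.0% ± 14.6 of Il15ra. Of Il9r, Il9r-205 held 100%, 28.7%, 100% and 34.8%, a swing that covers most of the possible range.

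Over all members, the share of TPM on transcripts not classed as protein-coding was 30.7% for Il7r, 21.4% for Il2rg, 34.7% for Il4ra, 18.4% for Il21r, 60.5% for Il15ra and 34.4% for Il9r, and it was 0 for Il2rb, which has no such transcript. The median over the 5630 protein-coding genes with several transcripts and a mean of at least 10 TPM was 33.5%, with quartiles of 15.7% and 52.4%. The abundant members with such transcripts lay inside these quartiles. When protein-coding transcripts alone were summed, Il2rg was at 170.1 ± 6.76 TPM, Il7r at 69.6 ± 1.43, Il4ra at 60.9 ± 6.08, Il2rb at 55.3 ± 2.87 and Il21r at 46.8 ± 1.98 (SD, n = 4). On that scale Il7r exceeded Il4ra in 4 of 4 libraries, by a log2 ratio of 0.20 ± 0.14, unlike in the second quantification, and the log2 ratio of Il7r to Il2rb was 0.33 in place of 0.86. Il4ra and Il2rb overlapped on it, with Il4ra at 52.0 and Il2rb at 58.0 TPM in library 4, so the step between them did not hold there. Il15ra was at 2.02 ± 0.734 TPM over protein-coding transcripts.

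**Figure D2:**
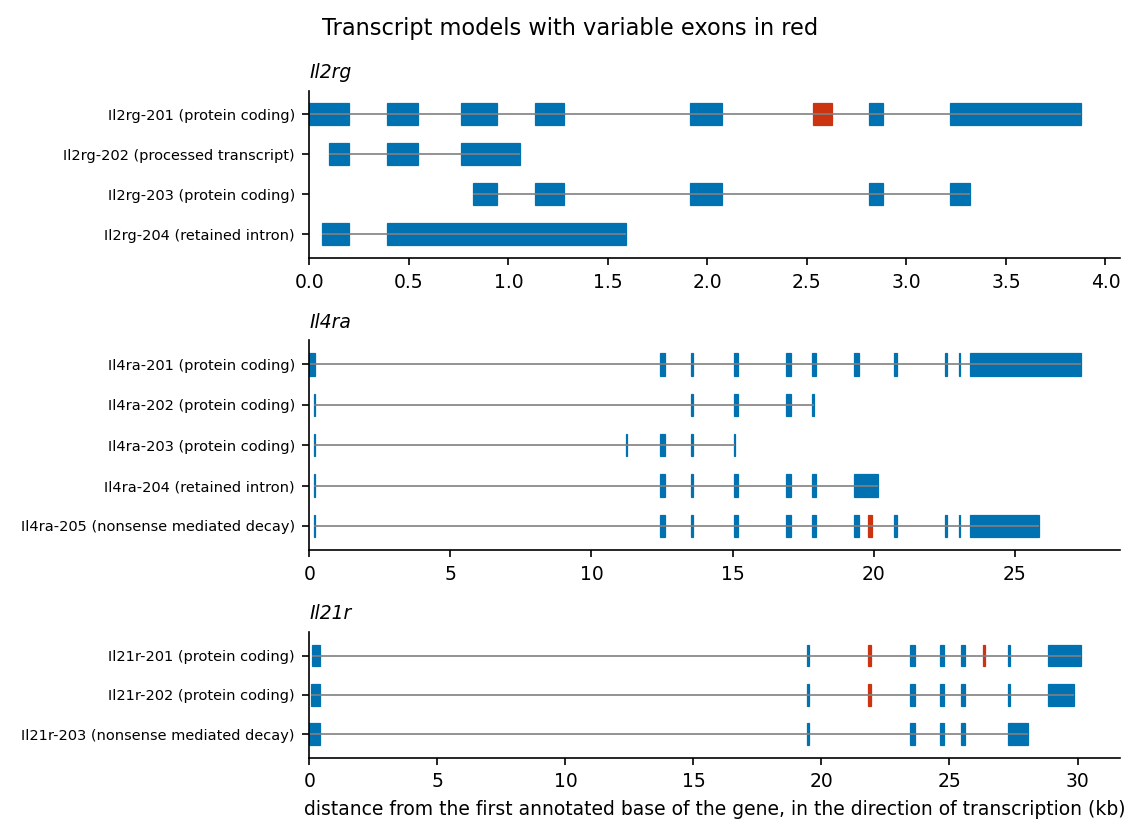
Annotated transcript models of Il2rg, Il4ra and Il21r drawn to scale, as distance in kb from the first annotated base in the direction of transcription, with boxes for exons. The variable exons named next are in red, and other exons and exon ends that differ between transcripts are not marked. Il2rg exon 6, the alternative exon of Il4ra and exons 3 and 7 of Il21r are each present in some transcripts and missing from others.

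**Figure D3:**
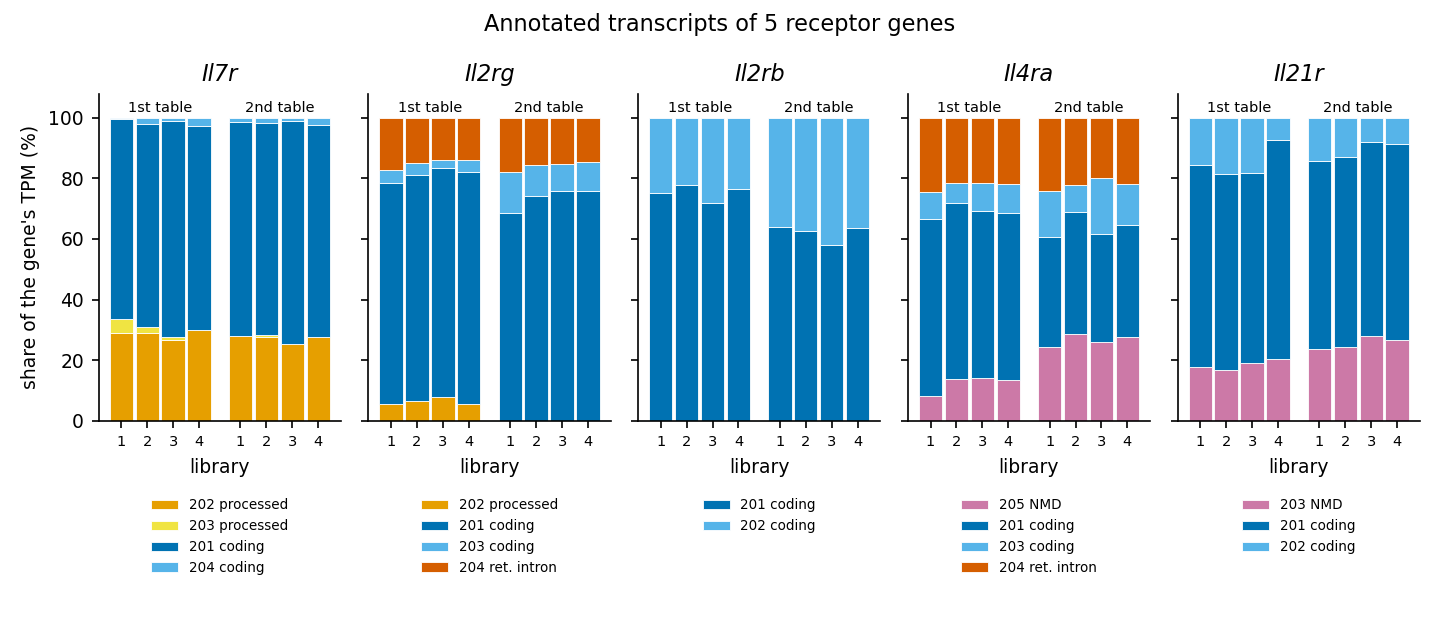
Share of each gene's TPM (%) held by its annotated transcripts in libraries 1 to 4, for 5 receptor genes in the first and the second quantification. The leading transcript was the same by both methods in all 5 genes, while Il4ra-201 held a mean of 56.8% in the first and 37.3% in the second.

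Whether the receptors varied between the samples was read from a test across all genes. For each of 13118 genes, edgeR's goodness-of-fit test asked whether the 4 libraries spread more than genes of the same abundance do. At an adjusted p of 0.05 it called 1.40% of all tested genes and 0 of the 7 members, and at an unadjusted p of 0.05 it passed 4.60% of all tested genes and 2 of the 7, Il4ra and Il9r. The median SD of log2 CPM between libraries was 0.11 over the members and 0.12 over all tested genes. The SD makes no allowance for abundance. The median statistic of edgeR's test, which does, was higher over the members, at 2.47 against 1.47 over all tested genes. The steadiest member was Il21r with an SD of 0.05, followed by Il2rb with 0.07, Il7r with 0.08, Il15ra with 0.11, Il2rg with 0.12, Il4ra with 0.20 and Il9r with 0.68. With DESeq2 size factors in the same test, again 0 of 7 members were called and 2 had an unadjusted p under 0.05.

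Il4ra was the abundant member with the widest spread. Its CPM was 370.9, 391.8, 366.5 and 297.3, and on the log2 scale it lay above the mean by 0.09, 0.16 and 0.04 in libraries 1 to 3 and below it, at -0.29, in library 4. In edgeR's test the unadjusted p was 0.00294 and the Benjamini-Hochberg adjusted p was 0.157, and 1.86% of all tested genes had a larger statistic. In the second quantification the adjusted p from edgeR was 0.0585. Without library 4, its unadjusted p from edgeR was 0.574 and its mean was 97.6 TPM in place of 93.2. Il4ra is also known to be expressed by B cells, and library 4 is the library in which the 12 B cell markers summed to 174.3 TPM against 15.2 to 21.4 in the others. Il4ra was thus lowest where B cell markers were highest, and the part of the other cells in this result was not tested. Il2rg was lowest in library 4 as well, at -0.16, with an unadjusted p from edgeR of 0.148, whereas Il7r, Il2rb, Il21r and Il15ra had p-values of 0.481 to 0.926.

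Il9r moved the other way. It was at 1.59, 1.45, 1.04 and 3.51 CPM, and library 4 was the highest. In edgeR's test its unadjusted p was 0.0136 and its Benjamini-Hochberg adjusted p was 0.493. With 1 common dispersion in place of the trend, edgeR's adjusted p was 0.0111, so the call depends on how much spread is allowed to a gene of so few counts. Without library 4 its unadjusted p from edgeR was 0.523 and its mean was 0.383 TPM in place of 0.600, so library 4 decides that level. The B cell and erythroid sums given above were also highest in library 4, and their part in the Il9r value was not tested. Library 4 was the farthest of the 4 libraries from the mean for 31.6% of all tested genes and for 4 of the 7 members, Il4ra, Il9r, Il2rg and Il15ra.

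**Figure D4:**
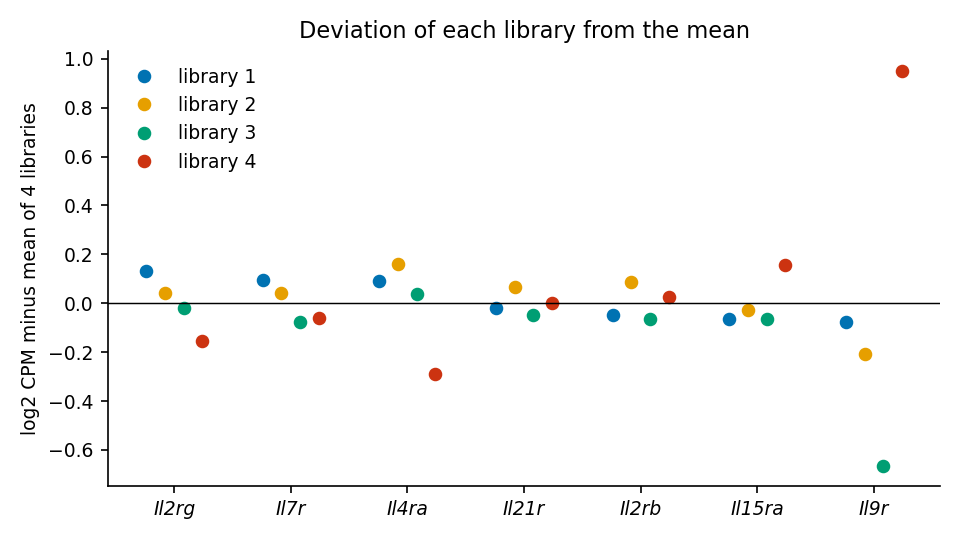
Deviation of each library from the mean of 4, as log2 CPM, for the 7 receptor genes, with 1 point per library. Il4ra in library 4 lies at -0.29 and Il9r in library 4 at 0.95, while all values of Il7r, Il2rb and Il21r stay within 0.10 of the mean.

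The rest of the pathway was read from 51 genes on 6 lists of receptor partners, ligands, signalling proteins, inhibitors, downstream genes and transcription factors. Of these, 41 were tested and 0 were called by edgeR after adjustment. An unadjusted p under 0.05 was found for 5 of the 41 (Il2ra, Pim1, Pim2, Il4i1 and Gfi1), against 4.60% of all tested genes. The median SD of log2 CPM over the 41 was 0.09. The other partner chains were low: Crlf2, which pairs with Il7r to bind TSLP, was at 11.9 ± 0.953 TPM and Il2ra at 7.35, 8.07, 10.3 and 9.25 TPM. Il13ra1 had a mean of 0.095 TPM, and Il13ra2 had 0 counts.

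The ligands were nearly absent from the same libraries. None of the 8 reached a mean of 1 TPM and 0 passed the filter on low counts. Il15 was at 0.36, 0.54, 0.18 and 1.09 TPM, Il4 at 0.43, 0, 0.42 and 1.02, and Il21 at 0.16, 0.40, 0.63 and 0.30, from at most 31 counts. Il9 had 0 counts in all 4 libraries. Each ligand was thus more than 10-fold below the level of Il7r, Il2rb, Il4ra or Il21r in every library, at a depth where few of these values rest on more than a handful of counts.

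Downstream of the receptors, all 9 JAK and STAT genes were at 10 TPM or more. Jak1, the kinase of the partner chains, was at 171.2 ± 6.08 TPM, and Jak3, the kinase of the shared chain, at 31.8 ± 2.26. Stat3, the main factor for IL-21, was at 78.2 ± 9.57. Stat6, the factor for IL-4, was at 65.3 ± 1.62. Stat5b and Stat5a, the factors for IL-2, IL-7 and IL-15, were at 44.5 ± 3.47 and 30.0 ± 1.15 TPM. Jak2 and Tyk2 were lower, at 21.5 ± 0.604 and 21.2 ± 0.673. Jak3 RNA was thus below Il2rg RNA, and Jak1 RNA was below the summed partner chains, in every library.

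Of the 9 inhibitors, 6 reached 10 TPM, led by Ptpn6 at 59.4 ± 3.10, Cbl at 57.0 ± 4.99 and Pias1 at 39.1 ± 2.91 TPM. The feedback inhibitors that STAT factors induce were lower than Ptpn6, Cbl and Pias1. Socs3 was at 21.8 ± 3.30, Cish at 9.30 ± 1.75, Socs1 at 7.10 ± 1.29 and Socs2 at 1.46 ± 0.522. The other inhibitors on the list, Ptpn2 at 21.8 ± 2.06 and Sh2b3 at 11.2 ± 0.780 TPM, were not above Socs3. Among 10 genes known to lie downstream, 8 reached 10 TPM, led by Pim1, a survival kinase, Mcl1, a survival factor, and Gimap5, a protein needed for T cell survival. Pim1 was at 114.0, 103.8, 104.9 and 88.4 TPM, lowest in library 4 like Il4ra, with an unadjusted p from edgeR of 0.00462 and an adjusted p of 0.225. Mcl1 was at 94.6 ± 8.05, Gimap5 at 52.1 ± 4.89 and Bcl2, another survival factor, at 49.7 ± 2.58 TPM.

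The 11 transcription factors known to control receptor genes included the most abundant RNAs of the pathway, and 8 reached 10 TPM. Tcf7 was at 430.5 ± 11.2, Klf2 at 343.4 ± 15.0 and Ets1 at 282.5 ± 7.07 TPM. Foxo1, which is known to be needed for Il7r expression in T cells, was at 51.5 ± 1.27. Gfi1, known to repress Il7r, was at 6.99, 10.5, 5.93 and 10.1 TPM. Eomes and Tbx21, which are known to support Il2rb expression, were at 7.91 ± 1.39 and 5.09 ± 0.313.

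**Figure D5:**
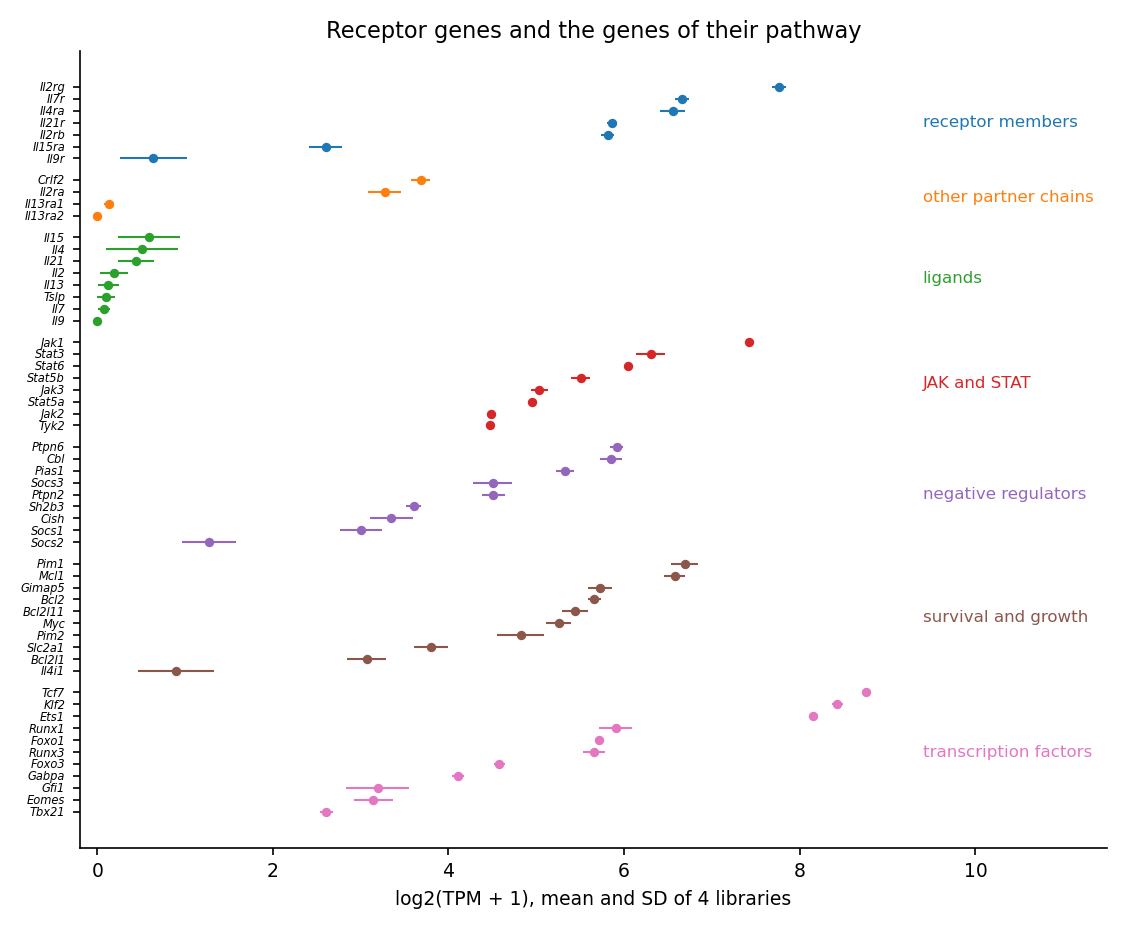
Mean and SD over 4 libraries of log2(TPM + 1) for the 7 receptor genes and genes of their pathway, grouped by role. The JAK and STAT genes drawn all lie above 10 TPM, and all 8 ligands lie below a mean of 1 TPM.

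The protein-coding genes whose values lay closest to 4 of the members were found by the Euclidean distance of log2(TPM + 1) over the 4 libraries, a measure that reads level and library pattern together. Stk17b was closest to Il2rg, at a distance of 0.0356, with 228.2, 215.2, 216.6 and 198.9 TPM, and Eef1g was next at 0.143. Ogdh (0.0432) and Tmpo (0.0754) were closest to Il2rb, Serf2 (0.0907) and Prdx6 (0.0961) to Il4ra, and H2afy (0.131) and Grcc10 (0.138) to Il7r. These distances describe 4 libraries only.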

How the data were processed

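Total RNA of splenic T cells was sequenced in 4 libraries of 1 group with spike-in RNAs and a directional kit, per the labels. The assembly is mm10 and the annotation GENCODE M21, as the deposited notes state. Aligner and quantifier names: not given in the sources used here. Each library was quantified alone. The authors deposited expected (estimated) counts per gene and transcript, which are not normalized. The deposited TPM values are scaled over all targets, spike-ins and 26248 numeric identifiers included. The deposited percent values give a transcript's share of its gene. The second quantification is a deposited transcript table of estimated counts and TPM, summed here per gene. Reads were assigned to the reference, and how reads with CAST/EiJ variants fared was not tested.

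Levels are the deposited TPM, summarised over 4 libraries as mean ± SD. Totals were 15818334, 17335895, 16439475 and 14584388 counts, of which 97 spike-ins took 0.299% to 0.347%. The spike-ins and numeric identifiers (at most 8.75e-05% of counts) stayed out of the tests. PCR copies cannot be told from separate molecules here, so floors and intervals cover counting error only. Variation was tested on rounded expected counts with edgeR 4.0.16 (R 4.3.3): intercept only, trended dispersion, TMM, filterByExpr, goodness of fit, Benjamini-Hochberg adjustment at 0.05. Log2 CPM used a prior count of 2. The test was checked on simulated counts. DESeq2 1.42.0 supplied size factors as an alternative. Ratios within a library used TPM plus 0.1 and an exact permutation test of their signs (two-sided). Exon shares compare only the transcripts named. Exon sequences were read from the M21 transcripts.

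The members and lists were chosen with earlier results of these data known. Named genes were all 7 members, genes of the pathway lists with the 3 highest of each, the 3 highest markers of each cell type, the 2 protein-coding genes nearest to each of 4 members, and transcripts with at least 10% of a member. Not every transcript of Il15ra and Il9r that meets this rule is named. A gene that this rule includes is not reported here, though it remains in the counts. Exon shares, and sums over protein-coding transcripts, were added after the data had been seen. Alternatives were the other quantification, other scaling, filter, dispersion and added constant, TPM rescaled to protein-coding genes, and leaving out each library.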

Additional observations from a re-analysis of the deposited data

Results flagged for a closer look

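Over 77 values looked at, 14 had 1 library whose gap to the nearest other library took up more of the range of the 4 libraries than chance gives in about 1 in 20 groups. Some of the 14 are not separate, since marker sums are counted beside genes within them, and Il13ra1 beside its ratio. For the receptors, the share with the alternative exon of Il4ra was 12.1% in library 1 against 19.2% to 20.3% in the others. It was counted between Il4ra-205 and Il4ra-201 alone. The log2 ratio of Il4ra to Il13ra1 was 8.33 in library 4 against 9.06 to 9.16, and Il13ra1 itself was at 0.15 TPM in library 4 against 0.07 to 0.08, on at most 8 counts.

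The other 11 concern RNA of other cells. In library 4 the B cell markers summed to 174.3 TPM, with Igkc at 67.9, Ighd at 16.5 and Cd22 at 12.8 TPM. The erythroid markers summed to 633.8 TPM there, with Hba-a1 at 246.5, Hbb-bs at 194.9 and Hba-a2 at 155.8 TPM. In library 2 the neutrophil markers summed to 30.2 TPM, with S100a9 at 13.3 and S100a8 at 11.4 TPM.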

How the results depend on the processing

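The 6 ratios recomputed under the alternatives kept their mean direction. The order of 2 pairs in the report did not: Il21r and Il2rb turned in the second quantification and over protein-coding transcripts, and Il7r and Il4ra in the second quantification. The number of genes varying between libraries was 183, and it was 279 with no filter on low counts, 353 with a common dispersion and 116 to 146 when 1 library was left out. With a common dispersion 1 member, Il9r, and 1 pathway gene were called. Levels in the second quantification were 122.4 TPM for Il7r, 267.6 for Il2rg, 76.0 for Il2rb, 131.5 for Il4ra, 73.9 for Il21r and 6.97 for Il15ra. Its median ratio to the first was 1.31 over 5908 protein-coding genes of at least 10 TPM. The posterior mean level of Il15ra was 6.74 TPM. Rescaled to protein-coding genes, levels were 284.2 TPM for Il7r, 613.0 for Il2rg, 156.2 for Il2rb, 263.9 for Il4ra, 162.1 for Il21r, 14.4 for Il15ra and 1.69 for Il9r, since protein-coding genes held 34.4% to 36.0% of TPM. Of 14 transcript and exon shares, 8 moved by more than the SD between libraries in the second quantification, and the cause was not tested. Some of the 14 are not separate: the shares of Il2rb-201 and Il2rb-202 are complements, and both are counted as moved. No paired analysis was possible because there is 1 group. Depth limits Il15ra and Il9r, whose transcript shares rest on 17 to 112 counts per library.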
